A study of Mus musculus with 4 samples.

Results

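Zbtb16 is the gene that encodes PLZF, and it is described here by the streptavidin ChIP peaks that lie in and around it. A peak was taken where its midpoint fell within the mm10 gene body of Zbtb16 (chromosome 9, 48651797 to 48836225, 184.4 kb) or within 100 kb on either side. This gave 13 of 9444 listed peaks, of which 7 were among the 4246 peaks of the NKT list and 6 among the 5198 peaks of the PLZF-transgenic list. The rule used positions only and no scores.

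The study mapped DNA recovered with PLZF from mouse thymocytes on a C57BL/6 background, by sonicating nuclei and catching PLZF on magnetic streptavidin beads. The NKT library came from thymocytes of PLZF tg/BirA tg/Valpha14 tg mice, where Valpha14 stands for the alpha chain segment of the receptor that invariant natural killer T cells use. The PLZF-transgenic library (Tg thy in the labels) was made from PLZF tg/BirA tg thymocytes. BirA is a bacterial biotin ligase, and mice of both groups carried it together with the PLZF transgene. Each group had 1 ChIP library and 1 input library, and the inputs were not analysed here. The labels give no age, no promoter for any transgene, no number of pooled animals and no sorting of natural killer T cells, so NKT names a library here and not a cell type. With 1 library per group there is no replicate error, no test between the libraries was made, and the sequencing depth is unknown. A control pull-down without the PLZF transgene was not analysed here, so a peak need not be a PLZF site.

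PLZF is a transcription factor with an N-terminal BTB domain, through which it dimerises and recruits co-repressors, and C-terminal zinc fingers that bind DNA. In the thymus it is switched on in natural killer T cell precursors and directs their innate-like effector program, while conventional thymocytes largely lack it. In the mouse the gene is transcribed from the strand on which its start lies at the high-coordinate boundary. Its coding sequence begins in a long exon near that start and continues in short exons spread over the gene.

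A transgene that carries PLZF coding sequence adds copies of that sequence to the genome, and reads from those copies align to the endogenous Zbtb16 exons. The labels do not say whether the transgene is a cDNA or a genomic fragment. Exon positions were not used here, so overlap of the peaks with exons was not tested. Mice of both groups carried the transgene. From peak positions without exons, DNA recovered from the transgene and from the endogenous gene could not be told apart at any site below.

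All 13 peaks lay inside the Zbtb16 body and 0 lay in the 100 kb on either side. They formed 7 sites, 6 of them in both lists and 1 in the NKT list alone. The sites are numbered here from the high-coordinate boundary downwards. They fell into 4 groups, with site 1 near the high boundary, sites 2 and 3 near the middle of the gene, site 4 by itself, and sites 5 to 7 near the low boundary. The stretches without any site measured 87.98 kb between sites 1 and 2, 22.67 kb between sites 3 and 4, and 51.81 kb between sites 4 and 5. Peaks at 0 of the 7 sites had their midpoint within 1 kb of either gene boundary.

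**Figure D1:**
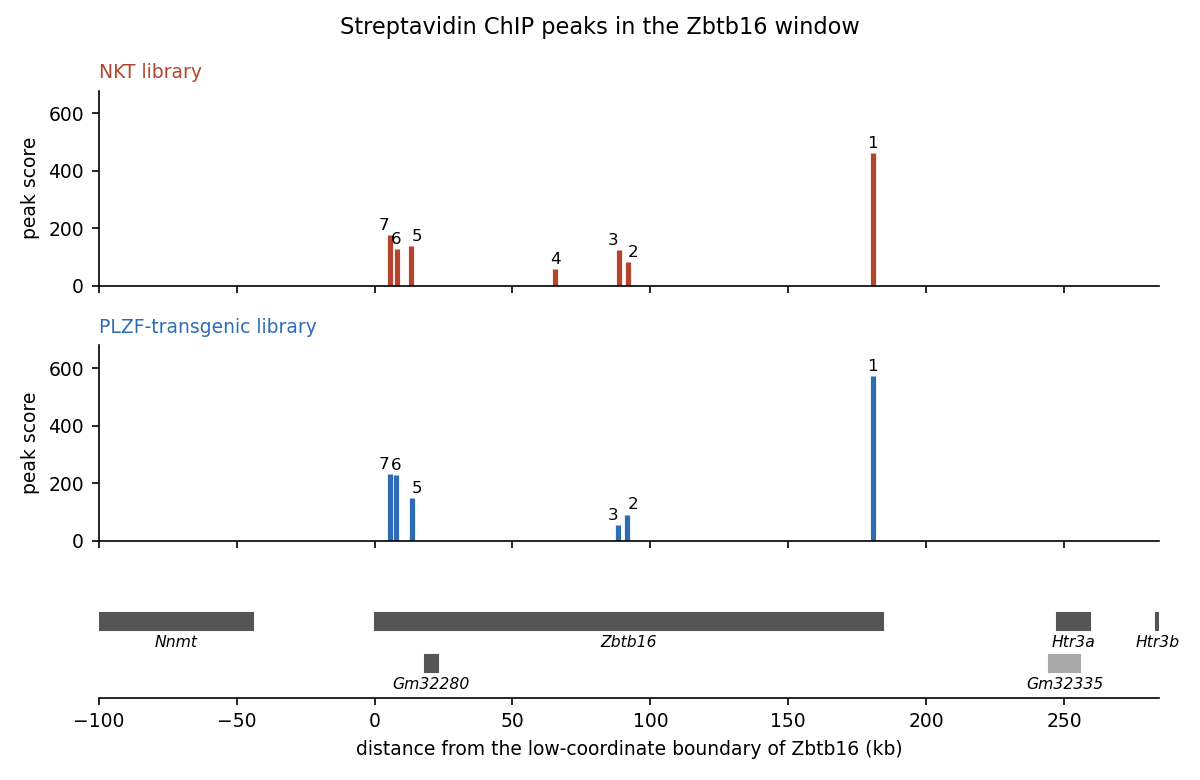
Peaks of the NKT library (top) and of the PLZF-transgenic library (middle) by distance from the low-coordinate boundary of Zbtb16 (kb), with line height giving the peak score and numbers naming the sites, above the annotated genes of the window (dark, protein-coding; light, noncoding; Nnmt and Htr3b are drawn as far as the window reaches). Both lists hold a tall peak at site 1 and lower peaks at sites 2, 3 and 5 to 7, site 4 is in the NKT list alone, and the space outside the gene body holds no peak.

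Site 1 carried the highest-scoring peak of the gene in each list. The NKT peak spanned 48831659 to 48833034 with a score of 462.75, and the PLZF-transgenic peak spanned 48831632 to 48833100 with a score of 572.29. The score is the value per peak in the deposited lists. The sources used here do not define it, and scores of the lists stand side by side as descriptions of each library. Within its own list, the NKT peak ranked 90 of 4246 and the PLZF-transgenic peak 198 of 5198. The midpoints lay 3.88 kb and 3.86 kb from the high-coordinate boundary, the end at which transcription starts.

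The site 1 peaks were long. The NKT peak was 1376 bp wide, and the PLZF-transgenic peak 1469 bp. Only 31 NKT peaks and 28 PLZF-transgenic peaks were as wide or wider, these included, where the median widths of the lists were 224 bp and 387 bp. The width also stood above that of peaks with like scores. Of 97 other NKT peaks with a score within 20% of that of site 1, the median width was 674 bp (quartiles 539 to 808 bp) and 1 was as wide. Of 190 such PLZF-transgenic peaks, the median width was 791 bp (quartiles 706.25 to 963 bp) and 1 was as wide. The NKT peak lay wholly within the PLZF-transgenic one, its edges 27 bp and 66 bp inside, and the overlap made up 93.7% of their joint extent. This measure of width at like score was chosen after the values were seen.

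Near the middle of the gene, sites 2 and 3 lay 2.84 kb apart. Site 2 had an NKT peak at 48743459 to 48743651 with a score of 82.11 and a PLZF-transgenic peak at 48743336 to 48743579 with a score of 90.31. Those peaks were offset, with midpoints 98 bp apart and an overlap of 121 bp, 38.3% of their joint extent, the lowest share among the 6 common sites. Site 3 had an NKT peak at 48740127 to 48740498 with a score of 123.75 and a PLZF-transgenic peak at 48740126 to 48740351 with a score of 52.65. The starts at site 3 differed by 1 bp, and the NKT peak reached 147 bp further at its end.

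Site 3 was the place where the lists stood in the other order. It was the only common site with the higher score and the wider peak (372 bp, against 226 bp) in the NKT list. Scores were 74.5% of the way up the NKT list, counted as the share of peaks with a lower score, and 5.29% of the way up the PLZF-transgenic list. The ratio of the NKT to the PLZF-transgenic score was 2.35 at site 3, and between 0.558 and 0.938 at the other 5 common sites. Over all 2603 overlapping pairs of the lists, the NKT score was the higher one in 18.1%, and 35 pairs (1.34%) had a ratio as high as that of site 3. At Zbtb16 it was the higher one in 1 of 6 pairs. Site 3 was singled out as the highest ratio of these 6. The 1.34% for single pairs therefore does not measure how rare it is. Depth and background of the libraries are unknown, and their part in these scores was not tested.

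Site 4 was listed in the NKT library alone, at 48717213 to 48717458, 65.5 kb from the low boundary. Its score of 58.83 was the lowest of the NKT peaks in Zbtb16, and 30.6% of the NKT list scored lower. In the NKT score class that holds it (58.53 to 64.64, 1 of 10 classes of equal size), 39.8% of peaks were shared with the PLZF-transgenic list. Its absence from the other list therefore concerned a peak near the lowest listed scores, 50.02 for NKT and 50.03 for PLZF-transgenic, and does not show that the site was unoccupied there. It was 246 bp wide, and 99 of 1998 other NKT peaks with a score within 20% of its own were as wide.

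Sites 5, 6 and 7 lay toward the low-coordinate boundary, the end at which transcription of the gene stops. Site 5 had an NKT peak at 48665068 to 48665332 with a score of 139.0 and a PLZF-transgenic peak at 48665026 to 48665404 with a score of 148.19. Site 6 had an NKT peak at 48659650 to 48659926 with a score of 126.85 and a PLZF-transgenic peak at 48659548 to 48659984 with a score of 227.13. Site 7 had an NKT peak at 48657138 to 48657410 with a score of 175.81 and a PLZF-transgenic peak at 48657087 to 48657495 with a score of 231.47. At each of these 3 sites the NKT peak lay wholly within the PLZF-transgenic peak. Their midpoints were 13.4, 7.99 and 5.48 kb from the low boundary in the NKT list and 13.4, 7.97 and 5.49 kb in the PLZF-transgenic list. The stretch between sites 5 and 6 was 5.04 kb and that between sites 6 and 7 was 2.05 kb.

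**Figure D2:**
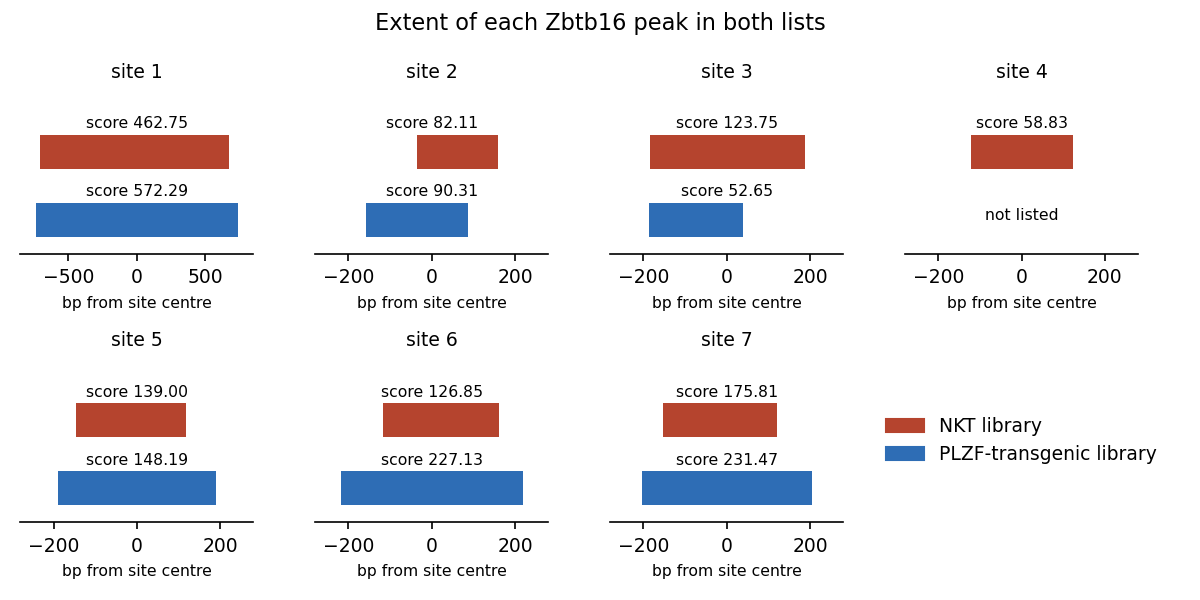
Extent of the NKT peak (upper bar) and the PLZF-transgenic peak (lower bar) at each of the 7 Zbtb16 sites, in bp from the centre of their joint extent, with the deposited score above each bar. Site 1 is drawn over a wider range than the others; the NKT bar lies inside the PLZF-transgenic bar at sites 1, 5, 6 and 7, is offset at site 2 and is the longer one at site 3.

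Sites 5 to 7 were narrow for their scores, opposite to site 1. Their NKT widths were 265, 277 and 273 bp, and 11.6%, 21.4% and 4.29% of NKT peaks with a score within 20% of theirs were narrower. Their PLZF-transgenic widths were 379, 437 and 409 bp, and 14.0%, 6.56% and 2.57% of like-scored PLZF-transgenic peaks were narrower. Site 2 was likewise narrow, with 20.1% of like-scored NKT peaks and 2.40% of like-scored PLZF-transgenic peaks below its widths of 193 bp and 244 bp. At site 3, 77.8% of like-scored NKT peaks and 24.2% of like-scored PLZF-transgenic peaks were narrower. At sites 2, 5, 6 and 7, at most 21.4% of like-scored peaks were narrower in either list.

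**Figure D3:**
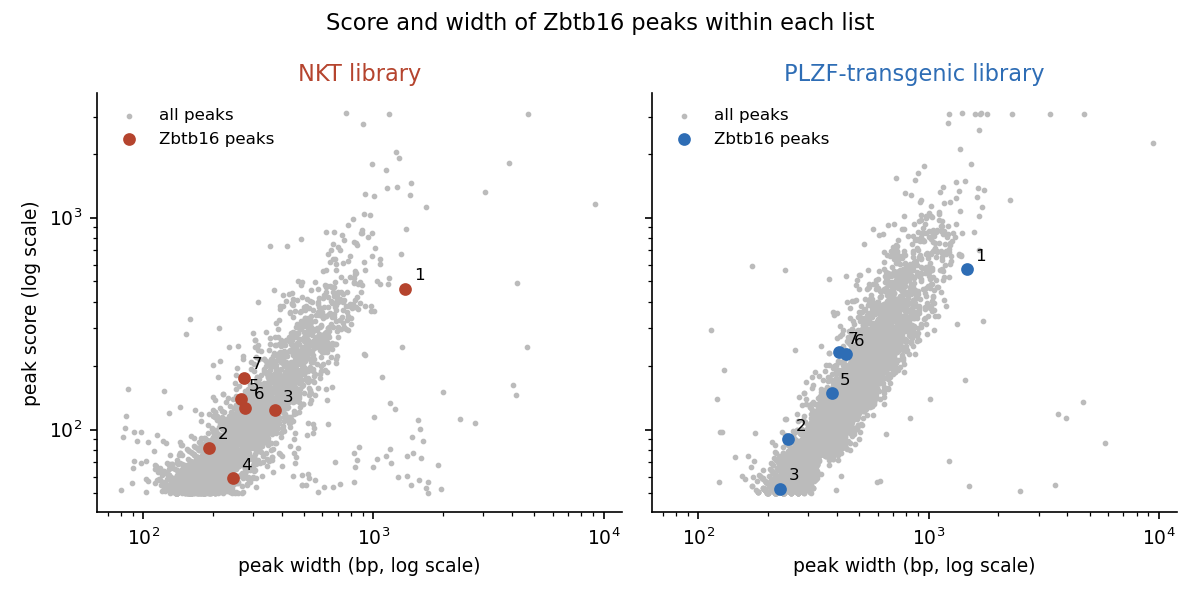
Width (bp, log scale) and score (log scale) of all peaks (grey) and of the Zbtb16 peaks (coloured, numbered by site) in the NKT list (left) and the PLZF-transgenic list (right). Site 1 lies to the right of the cloud in both lists, at 1376 bp and 1469 bp, while sites 2, 5, 6 and 7 lie toward its left edge.

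Positions of the peaks matched closely between the lists at sites 1, 5, 6 and 7, and less closely at sites 2 and 3 (98 bp and 74 bp between midpoints). At the 6 common sites the midpoints were 15 to 98 bp apart, with a median of 21 bp, against a median of 63 bp (quartiles 28 to 122 bp) over all 2603 overlapping pairs. The overlap as a share of the joint extent had a median of 65.1% at Zbtb16 and of 54.5% over all pairs. The wider peak was that of the PLZF-transgenic list at 5 of the 6 sites, and in 91.1% of all pairs. The NKT peak lay wholly within it at 4 of 6 sites, and in 64.2% of all pairs.

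Most Zbtb16 peaks of each list overlapped a peak of the other list, and both directions count the same 6 pairs. In the NKT list, 6 of the 7 members met a PLZF-transgenic peak over at least 1 bp, 85.7% (exact 95% interval 42.1 to 99.6%). Of all nuclear NKT peaks, 60.7% did so. All 6 PLZF-transgenic peaks overlapped an NKT peak, with a lower bound of the exact interval of 54.1%, where 45.6% of all nuclear PLZF-transgenic peaks did so. The intervals cover counting error only, and peaks within 1 gene are not independent. Since sharing increases with score, the members were also set against their own score classes, 10 per list. The mean share in the classes of the 7 NKT members was 80.2%, and in those of the 6 PLZF-transgenic members 54.9%. With 7 and 6 peaks of 1 gene, the exact intervals are too wide to tell the Zbtb16 shares from these means. The lowest-scoring PLZF-transgenic member, site 3, came from a class (scores 50.03 to 55.9) in which 15.8% of peaks were shared.

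The scores of the Zbtb16 peaks ranged widely. Their median was 126.85 in the NKT list (7 peaks, 58.83 to 462.75) and 187.66 in the PLZF-transgenic list (6 peaks, 52.65 to 572.29). The rest of each list had medians of 73.77 and 110.79. The members covered 3002 bp in the NKT list and 3164 bp in the PLZF-transgenic list.

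Beyond the gene, the neighbourhood was empty of peaks over a long distance. The nearest NKT peaks outside the window lay 2286 kb below the low boundary (score 63.99) and 1627 kb above the high boundary (score 86.05). The nearest PLZF-transgenic peaks lay 2476 kb below, inside Sik3 (score 472.61), and 1627 kb above (score 101.75). The peaks above the gene overlapped each other, 31.5 kb (NKT) and 31.4 kb (PLZF-transgenic) from Plet1. Within the stretch of 4.10 Mb that held only the Zbtb16 peaks there were 20 other protein-coding genes, among them Cadm1 and Ncam1, which encode cell adhesion molecules, Drd2, which encodes a dopamine receptor, and Usp28, which encodes a ubiquitin protease. The peak numbers in the files ran without a gap in both lists. Long empty stretches were not rare in general: 9.83% of spacings between neighbouring NKT peaks (415 of 4221) and 7.58% of those between PLZF-transgenic peaks (392 of 5171) exceeded 1600 kb.

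Such isolation was uncommon among genes with many peaks. Of 437 protein-coding genes with at least 5 peaks in the same window in each list, the nearer of the next peaks on both sides, from either list, was at a median of 141 kb. At Zbtb16 it was at 1627 kb, and 5 of the 437 genes, Zbtb16 included, reached that distance. Among the 28 of these genes with a body length within 1.5 times that of Zbtb16, the median was 161 kb and the next largest value 622 kb. Neighbouring genes share windows and peaks, so these genes are not independent. The comparison was chosen after the positions were seen and is given as a description.

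**Figure D4:**
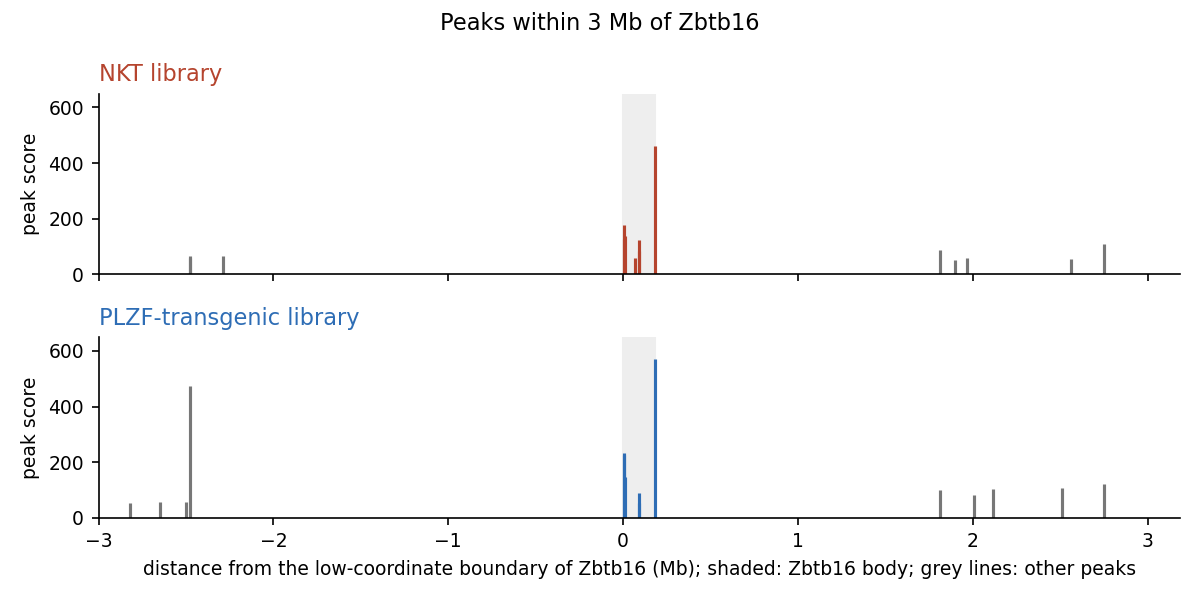
Peaks within 3 Mb of Zbtb16 in the NKT list (top) and the PLZF-transgenic list (bottom), by distance from its low-coordinate boundary (Mb), with line height giving the score. Coloured lines are the Zbtb16 peaks inside the shaded gene body, grey lines are other peaks, and none lies nearer than 2286 kb below or 1627 kb above the gene.

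The genes nearest to Zbtb16 had 0 peaks in their bodies, as had 92.8% of all protein-coding genes in the NKT list and 91.6% in the PLZF-transgenic list. Nnmt, which encodes nicotinamide N-methyltransferase, lay 44.1 kb below the low boundary, and its nearest NKT and PLZF-transgenic peaks were those of site 7, both 49.6 kb away. Htr3a and Htr3b encode subunits of a serotonin-gated ion channel and lay 63.0 kb and 98.8 kb above the high boundary. Their nearest peaks were those of site 1, 66.9 kb and 102.7 kb away in the NKT list and 66.8 kb and 102.6 kb in the PLZF-transgenic list. The noncoding gene Gm32335, whose body overlaps that of Htr3a, held 0 peaks in either list. Gm32280, annotated as protein-coding inside the Zbtb16 body (48670083 to 48674689), also held 0 peaks, with site 5 at 4.88 kb in the NKT list and 4.87 kb in the PLZF-transgenic list.

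The number of peaks put Zbtb16 near the top of all genes. Here and in the other comparisons between genes, transgene and endogenous Zbtb16 DNA were not told apart. Their parts in the counts were not tested. At least 1 peak in the body or 100 kb on either side was found for 37.2% of 21883 protein-coding genes in the NKT list and for 41.6% in the PLZF-transgenic list. The 7 NKT peaks of Zbtb16 were reached or passed by 168 genes (0.768%), and the 6 PLZF-transgenic peaks by 537 genes (2.45%). Counting the gene body alone, 10 genes had 7 or more NKT peaks and 27 genes had 6 or more PLZF-transgenic peaks, Zbtb16 included. Long genes collect more peaks in their bodies. The mean NKT body count was 0.103 over all genes and 0.333 among 1231 genes with a body length within 1.5 times that of Zbtb16. In the window these NKT means were 0.781 and 0.814. The PLZF-transgenic means were 0.129 and 0.465 in the body, and 0.959 and 1.02 in the window. Among the 1231 genes, 14 (1.14%) had as many NKT peaks in the window and 47 (3.82%) as many PLZF-transgenic peaks. In the body alone, 4 and 15 genes did, Zbtb16 included.

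**Figure D5:**
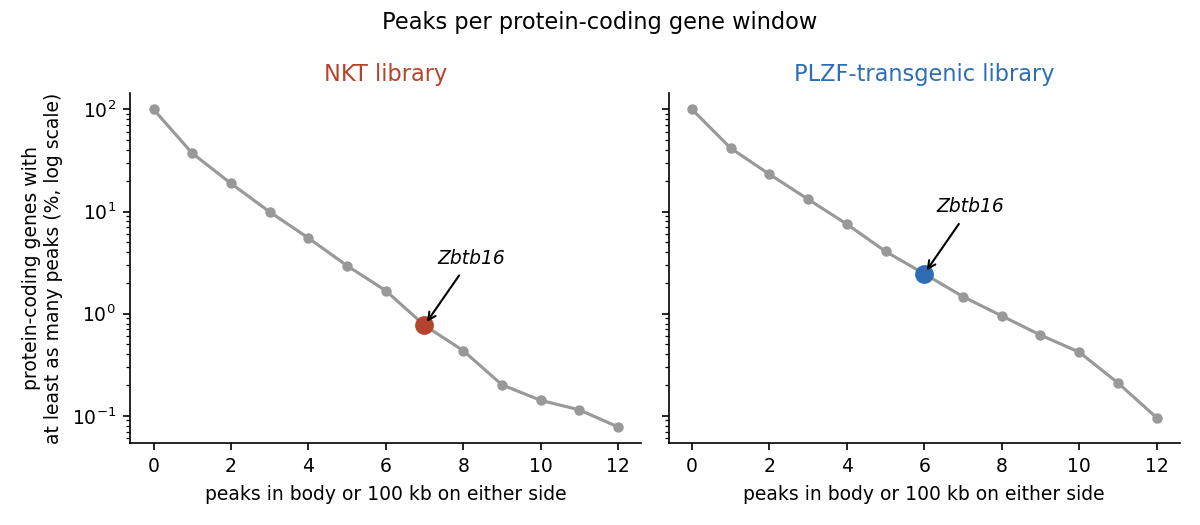
Share of protein-coding genes (%, log scale) with at least the given number of peaks in the body or 100 kb on either side, for the NKT list (left) and the PLZF-transgenic list (right). The coloured point marks Zbtb16, reached by 0.768% of genes in the NKT list and 2.45% in the PLZF-transgenic list; counts of 12 or more are drawn at 12.

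The gene body made up 48.0% of the Zbtb16 window and held all of its peaks. Of 39 genes of like length with at least 5 NKT peaks in their window, 7 had all of them in the body (17.9%), Zbtb16 among them. In the PLZF-transgenic list this held for 10 of 69 such genes (14.5%). Jakmip1, Septin9 and Tex14 shared this feature with Zbtb16 in both lists. This count, too, was chosen after the positions were seen.

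The genes most like Zbtb16 were taken from 1230 genes of like length by the sum of the differences in both peak counts. Cdyl2, which encodes a chromodomain protein, had the same counts, 7 NKT and 6 PLZF-transgenic peaks. Ripor2 had 6 and 6 peaks, and Septin9, which encodes a septin, 8 and 7. Cmah, which encodes a hydroxylase of sialic acid synthesis, had 5 and 6, and Pag1, which encodes a membrane adaptor that recruits the kinase Csk, 6 and 5, the NKT count first. The highest scores of the 5 genes ranged over 116.02 to 486.2 in the NKT list and 307.54 to 912.78 in the PLZF-transgenic list, and those of Pag1, the top of both ranges, were above the 462.75 and 572.29 of Zbtb16. The widest peaks of these 5 genes measured 355 to 856 bp in the NKT list and 605 to 1208 bp in the PLZF-transgenic list, against 1376 bp and 1469 bp at Zbtb16. Likeness here rests on 2 counts, 1 per library.

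Genes known to act upstream of Zbtb16, or on natural killer T cell development, also lay near peaks. Of 15 such genes, 12 had an NKT peak in the body or 100 kb on either side and 14 had a PLZF-transgenic peak, against 37.2% and 41.6% of all protein-coding genes. The medians were 2 and 4 peaks, where the median over all protein-coding genes was 0 in both lists. The windows hold neighbouring genes as well. Ets1, an ETS family factor, had 10 NKT and 12 PLZF-transgenic peaks, with highest scores of 444.33 and 862.22. These highest peaks were at different places, the NKT one 44.0 kb outside Ets1 and the PLZF-transgenic one inside it. Runx1, whose product binds an enhancer inside Zbtb16, had 5 and 11, with highest scores of 240.63 and 356.39. Hdac7, a class IIa histone deacetylase of thymocytes, had 6 and 10, with highest scores of 845.01 and 674.46, and Myb had 7 and 8, with highest scores of 382.22 and 575.58. Egr2, which activates Zbtb16 after T cell receptor signals, had 2 in each list, and Myc had none.

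Of 10 other factors of lymphocytes related to PLZF by their BTB and zinc finger domains, 7 had an NKT peak in the window and 8 a PLZF-transgenic peak, with medians of 1 and 2 peaks. Of all protein-coding genes, 37.2% and 41.6% had one. Zbtb1 and Zbtb25 had the same window counts, 1 and 3, and the same highest scores, 70.64 and 78.83, so the 10 genes are not independent. The bodies of these 10 genes differ much in length. Bcl6 had 2 NKT and 3 PLZF-transgenic peaks in a body of 23.8 kb, which is 8.40 and 12.6 per 100 kb. Zbtb25 had 0 and 3 in a body of 21.3 kb, the 3 being 14.1 per 100 kb. Zbtb16, with 7 and 6 in 184.4 kb, had 3.80 and 3.25 per 100 kb. Patz1 had 6 NKT and 8 PLZF-transgenic peaks in its window. Its highest NKT peak (score 491.21) lay inside Sfi1, 96.0 kb from Patz1. Zbtb7a had 6 and 3 window peaks and 0 in its body, and Bcl6 had 2 and 4.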

How the data were processed

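The deposited data were 2 peak lists, 1 per streptavidin ChIP library, with 5 columns and no header. The fifth column is a score deposited by the authors for every peak, which neither files nor labels define. Peak names begin with MACS, per the files, and Bowtie, Picard, HOMER and mm10 are named, per the submitters' processing notes, without versions. The sources used here do not give the control used for peak calling, or any pooling. No read counts were used, so depth is unknown and limits what an unlisted site can mean.

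Starts were raised by 1 to give 1-based coordinates. Gene spans were those of RefSeq on GRCm38.p6 (the mm10 assembly). Exons were not used, and the direction of transcription is background knowledge. No genome was used and Zbtb16 had no entry in the promoter table, so no sequence is printed. Peaks were counted per window over 21883 nuclear protein-coding genes. Peaks were shared at an overlap of at least 1 bp, and share intervals are exact (Clopper-Pearson, 95%). Counting functions were tested on simulated data. Python 3.11.15, pandas 2.3.3 and scipy 1.17.1 were used.

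The members and gene lists were chosen with earlier results of these data known. Named were all member peaks, neighbours within the window, the 5 genes of like length nearest in both counts, at most 4 of 15 regulators and 3 of 10 related factors by number of peaks. Egr2, Myc, Zbtb1 and Zbtb25, the neighbours in the empty stretch and the genes with all peaks in the body were named after their values were seen. Alternatives changed the window, the membership, the score minimum, the overlap and the set of genes.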

Additional observations from a re-analysis of the deposited data

How the results depend on the processing

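The number of peaks, the shares of overlapping peaks and the highest scores at Zbtb16 kept their values with the gene body alone, with 20 kb or 50 kb on either side, and with membership by any overlap. With the top 50% of each list, 6 NKT and 4 PLZF-transgenic peaks were left, and 66.7% of the NKT peaks overlapped a PLZF-transgenic peak. With the top 1000 peaks of each list, 3 NKT peaks and 1 PLZF-transgenic peak were left. There, 33.3% of the NKT peaks overlapped a PLZF-transgenic peak. All PLZF-transgenic peaks that were left overlapped an NKT peak in both settings. Fewer peaks enter by construction in both settings. The share of protein-coding genes with fewer peaks than Zbtb16 was 99.2% in the NKT list and 97.5% in the PLZF-transgenic list. In that order it was 99.95% and 99.88% with the gene body alone, 99.90% and 99.7% with 20 kb, 99.7% and 99.1% with 50 kb, 99.7% and 98.2% with the top 50% of each list, 98.9% and 96.2% among genes of like length, and 96.0% and 93.4% by peaks per 100 kb of window. It was 87.5% in the PLZF-transgenic list with the top 1000 peaks. With a reciprocal overlap of 50%, 71.4% of NKT and 83.3% of PLZF-transgenic members were shared. Shares over all peaks are given here only for an overlap of at least 1 bp in the full lists. The member shares under the reciprocal overlap and the score cuts therefore have no base to be read against. No paired analysis was possible because each group had 1 library. Unknown depth limits all statements on unlisted sites.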
